A study of Mus musculus with 12 samples.

Results

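The transcripts described here are 230 genes whose RNA stood higher in the input of Miwi ADH/- mice and lower in the input of Miwi -/- mice than in the input of Miwi +/- mice, out of 12246 genes that reach 1 RPKM in 2 or more of the 6 value columns and 20345 genes listed in all. RPKM divides the reads of a gene by its length in kilobases and by the library's reads in units of 1000000. The transcripts were chosen by these measured input values alone: a gene was taken where log2(RPKM + 1) was at least 1 above the Miwi +/- input in the Miwi ADH/- input and at least 1 below it in the Miwi -/- input, which is a 2-fold difference either way on that scale. The protamine and transition protein genes Prm1, Prm2, Tnp1 and Tnp2 were left out by name; 3 of these 4 genes met the rule.

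The study sequenced RNA recovered with antibody to MIWI (the IP) and RNA of the starting material (the input) after removal of ribosomal RNA. All samples are labelled as mouse late spermatocytes, in 3 genotypes. Miwi +/- cells carry 1 null and 1 normal allele, Miwi ADH/- cells carry the null allele and the ADH allele, and Miwi -/- cells lack the protein, so that their IP is the background of the antibody and all 3 genotypes share at least 1 null allele. The labels give 2 samples to every one of the 6 groups, and the values come as 1 column per group. No replicate spread was therefore at hand: every difference below is between single columns and carries no p-value. The intervals given are exact 95% intervals for ratios of reads, and they cover counting error only. Neither age nor strain is given in the sources used here, and the labels say that RNA came from testes or sorted cells without saying which samples are which.

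MIWI is a PIWI protein of male germ cells that binds piRNAs in meiotic spermatocytes and in the round spermatids that follow them. The ADH allele alters the catalytic triad that PIWI proteins need to cleave RNA. Male mice without MIWI are known to stop sperm formation at the round spermatid stage, and mouse spermatids store many messages for the later steps of sperm formation, among them those for transition proteins and protamines. Transition proteins and then protamines take the place of histones on the DNA of elongating spermatids.

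The table does not pair its Ensembl gene IDs with names, and the reference table used here matched 0 of them. The 230 transcripts could therefore not be assigned to germ cell stages or functions, the lists of stage and cell type markers gave no values, and individual transcripts are given by ID, at most 2 in each direction of a comparison. The only named stage markers were the 4 genes left out, which are known as markers of spermatids, a later stage than the one on the labels; the labelled cell type could not be checked further. In the inputs labelled late spermatocyte, Tnp1 stood at 671 RPKM for Miwi +/-, 2296 for Miwi ADH/- and 1.35 for Miwi -/-. Prm1 stood at 337, 900.1 and 0.901 RPKM, in the same order. Tnp2 stood at 173, 614 and 1.03 RPKM, and Prm2 at 198, 302 and 0.456. All 4 were thus abundant in the Miwi +/- and Miwi ADH/- inputs and had 2 to 4 reads in the Miwi -/- input. These 4 genes therefore moved in the same directions as the 230 transcripts. Prm2 rose by only 0.604 on the log2(RPKM + 1) scale in Miwi ADH/-, below the threshold. The other 3 met the rule, so for them this restates it. Other spermatid markers had no values, and the part of spermatids in the differences below was not tested. In such bulk RNA, fewer cells of a type and less RNA per cell cannot be told apart.

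Depth differed between columns. Read totals estimated from the steps of the RPKM values ran from 4172622 in the Miwi -/- IP to 10581438 in the Miwi ADH/- IP, with reads in listed genes from 761525 (Miwi -/- IP) to 3918947 (Miwi +/- input). In a gene of 1000 bases, 3 reads were worth 0.719 RPKM in the Miwi -/- IP and 0.284 RPKM in the Miwi ADH/- IP.

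In the inputs, which chose them, the 230 transcripts were of low to moderate abundance. Their RPKM in the Miwi +/- input ran from 1.05 to 63.5 with a median of 4.40, against a median of 7.37 for all 12246 genes. In the Miwi ADH/- input they ran from 3.65 to 403 with a median of 17.4, and in the Miwi -/- input from 0 to 22.2 with a median of 0.137. The median difference on the log2(RPKM + 1) scale was 1.51 for Miwi ADH/- against Miwi +/- and -1.89 for Miwi -/- against Miwi +/-. These values are a description of how the transcripts were picked. Of all genes, 7.8% were at least 2-fold higher and 7.42% at least 2-fold lower in the Miwi ADH/- input. In the Miwi -/- input 10.6% were lower by that factor and 4.47% higher. Both comparisons use the same Miwi +/- column, and the 230 transcripts are 1.88% of the genes.

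**Figure D1:**
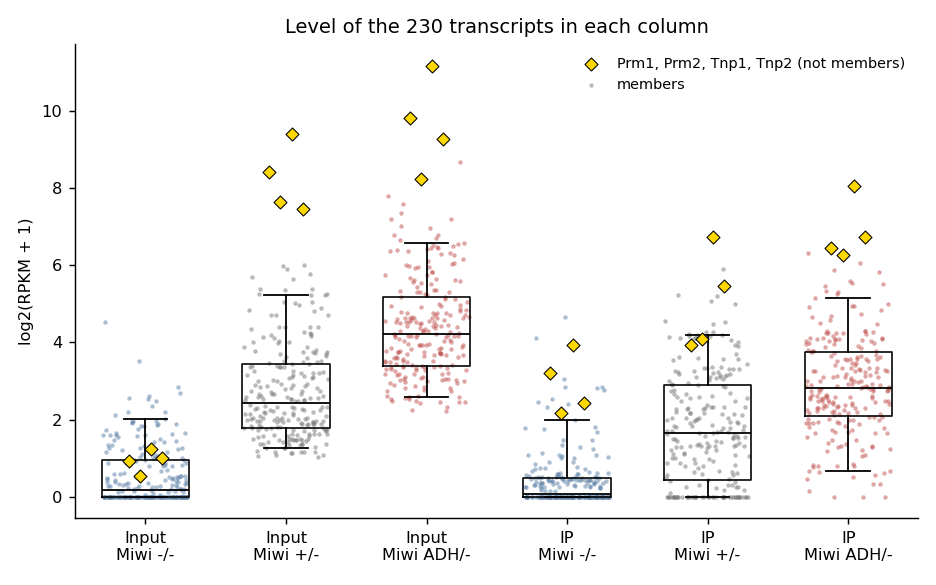
Level of each of the 230 transcripts (dots, log2(RPKM + 1)) in the 3 input and 3 IP columns; boxes show the quartiles and median, whiskers the 5th and 95th percentiles, and diamonds Prm1, Prm2, Tnp1 and Tnp2, which are not among the 230. The input medians are 0.137, 4.40 and 17.4 RPKM in Miwi -/-, Miwi +/- and Miwi ADH/-, and the IP medians run in the same order at 0.0532, 2.14 and 6.09 RPKM.

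The most abundant of these transcripts show the size of the contrast. ENSMUSG00000047995 had 63.5 RPKM in the Miwi +/- input, 403 in the Miwi ADH/- input and 2.63 in the Miwi -/- input. Its ratio of Miwi ADH/- to Miwi +/- was 6.34 (5.32 to 7.60), and its ratio of Miwi +/- to Miwi -/- was 24.2 (10.9 to 66.9, from 6 reads in Miwi -/-). Its IP columns ran in the same order, with 4.47 RPKM in Miwi -/-, 16.4 in Miwi +/- and 38.5 in Miwi ADH/-. ENSMUSG00000027564 stood at 61.6, 219 and 0.830 RPKM in the inputs of Miwi +/-, Miwi ADH/- and Miwi -/-. The Miwi -/- value rests on 3 reads, and the ratio of Miwi +/- to Miwi -/- was 74.3 (25.1 to 363). In its IPs the values were 22.4, 34.7 and 2.35 RPKM, so the Miwi -/- column was lowest there too. Over the 10 transcripts with the highest Miwi +/- input, the inputs ran from 37.3 to 63.5 RPKM in Miwi +/-, from 84.8 to 403 in Miwi ADH/- and from 0.412 to 22.2 in Miwi -/-. The Miwi -/- IP was the lowest IP for 10 of these 10, the Miwi ADH/- IP was above the Miwi +/- IP for 9 of them, and all 10 had less RPKM in the IP than in the input of both Miwi +/- and Miwi ADH/-. Of all genes, 77.6% were below their input in Miwi +/- and 67.8% in Miwi ADH/-, and these 10 were picked for a high input.

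The widest gaps belonged to transcripts that were near or at 0 in the Miwi -/- input. ENSMUSG00000048686 had 58.8 RPKM in the Miwi +/- input and 161 in the Miwi ADH/- input, but 0.412 in the Miwi -/- input, where it had 2 reads; the ratio of Miwi +/- to Miwi -/- was 143 with an interval of 39.2 to 1184. ENSMUSG00000024532 had 32.2 RPKM in the Miwi +/- input, 129 in the Miwi ADH/- input and no read in the Miwi -/- input. Measured against 3 reads in that column, it was 141-fold higher in Miwi ADH/- than in Miwi -/-, and the lower end of the interval was 114. The largest difference of Miwi ADH/- from Miwi +/- was that of ENSMUSG00000029909, at 64.9 RPKM against 1.96 (33.1-fold, 17.1 to 73.3, from 9 reads in Miwi +/-), with 0 reads in Miwi -/-.

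**Figure D2:**
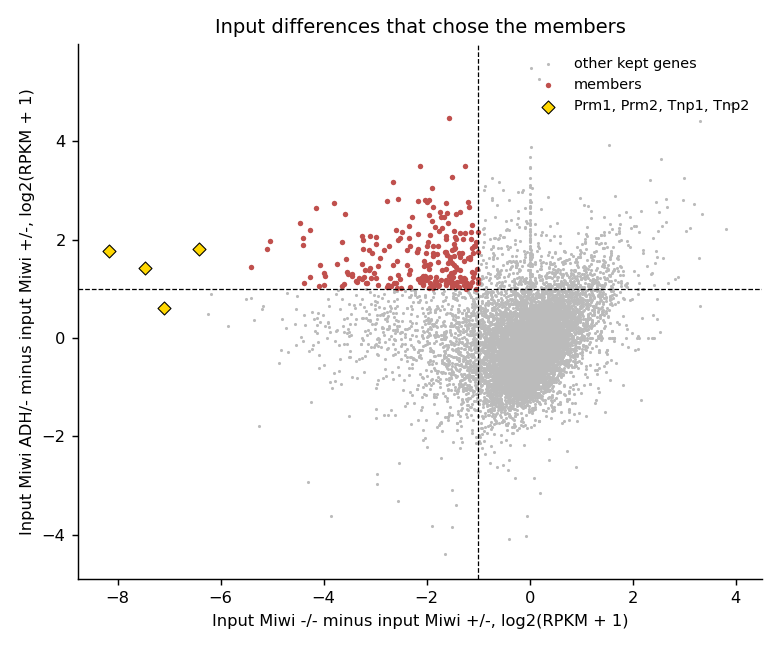
Difference of log2(RPKM + 1) from the Miwi +/- input in the Miwi ADH/- input (vertical) and in the Miwi -/- input (horizontal) for the 12246 genes; dashed lines mark the thresholds, red dots the 230 transcripts and diamonds the 4 genes left out. Both axes subtract the same Miwi +/- column, and the 230 transcripts lie in the upper left field beyond both thresholds, with medians of 1.51 and -1.89.

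Among themselves the transcripts differed in how much was left without MIWI. In the Miwi -/- input 105 of 230 (45.7%) had no read, 51 had 1 to 3 reads and 74 had 4 or more, whereas 4.45% of all 12246 genes had no read there. The rule chose genes low in that column, so this contrast follows in part from the choice. The 105 without a read were the less abundant ones, with medians of 2.81 RPKM in the Miwi +/- input and 12.4 in the Miwi ADH/- input, so at this depth a level of 0 is not a measured absence. The 74 with 4 or more reads had medians of 9.55, 27.9 and 1.68 RPKM in the Miwi +/-, Miwi ADH/- and Miwi -/- inputs. Among the 57 transcripts with at least 10 RPKM in the Miwi +/- input, 11 had no read in Miwi -/-, and the median difference of Miwi -/- from Miwi +/- was -3.24 and that of Miwi ADH/- from Miwi +/- was 1.35. The gap between the 2 mutant inputs, which leaves out the Miwi +/- column, ran from 2.04 to 7.02 on the log2(RPKM + 1) scale with a median of 3.64. All 230 were at least 2-fold higher in Miwi ADH/- here, as the choice fixes, against 12.6% of all genes higher and 6.54% lower. The gap was at least 5 for 30 transcripts, which had median inputs of 72.7 RPKM in Miwi ADH/- and 0.245 in Miwi -/-.

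The reads behind the choice differ between transcripts. In the inputs that chose them, the interval of the read ratio lay above 1 for Miwi ADH/- against Miwi +/- in 223 of them, below 1 for Miwi -/- against Miwi +/- in 219, and both held for 218; the choice favours this outcome, and the counts are a description. At the stricter level of an interval beyond 2-fold in both comparisons, 108 were left. Close to the thresholds the list is arbitrary: 32 transcripts lay within 0.1 above the threshold of the Miwi ADH/- difference and 12 within 0.1 of that of the Miwi -/- difference. Just inside the first, ENSMUSG00000053508 had 53.9 RPKM in the Miwi +/- input and 109 in the Miwi ADH/- input; the gene just outside had 11.6 and 24.2. Just inside the second stood a transcript with 3.77 RPKM in the Miwi +/- input and 1.38 in the Miwi -/- input, and just outside it a gene with 0.998 and 0 RPKM.

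The IP columns were not compared by the rule and show where the same transcripts stood in the RNA recovered with the antibody. Their RPKM in the Miwi +/- IP ran from 0 to 58.9 with a median of 2.14, in the Miwi ADH/- IP from 0 to 80.7 with a median of 6.09 and in the Miwi -/- IP from 0 to 24.1 with a median of 0.0532. For 143 of 230 transcripts the Miwi -/- IP was below the Miwi +/- IP and that below the Miwi ADH/- IP, an order found in 42.8% of all genes. Between the IPs of Miwi ADH/- and Miwi -/-, 203 of 230 were at least 2-fold higher in Miwi ADH/- and 2 at least 2-fold lower, against 51.8% and 4.93% of all genes. How far the IP levels follow the input levels was not tested.

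Between the IPs of Miwi ADH/- and Miwi +/-, 129 of 230 transcripts (56.1%) were at least 2-fold higher in Miwi ADH/- and 9 at least 2-fold lower, against 18.0% and 7.48% of all genes. The median difference on the log2(RPKM + 1) scale was 1.20, against 0.21 for all genes. Counting intervals of the read ratio lay on the same side of 1 for 126 of the 129 and for all of those 9. ENSMUSG00000024532 had 47.4 RPKM in the Miwi ADH/- IP and 0.731 in the Miwi +/- IP, a ratio of 64.8 (17.7 to 538) that rests on 2 reads in Miwi +/-, while its inputs differed by much less, at 129 and 32.2 RPKM. ENSMUSG00000074344 had 13.3 RPKM against no read, 23.6-fold measured against 3 reads (lower end of the interval 18.9), with inputs of 18.0 and 3.26 RPKM. Among the few that went the other way, ENSMUSG00000086632 had 1.31 RPKM in the Miwi ADH/- IP and 10.9 in the Miwi +/- IP, 8.33-fold lower (4.29 to 17.7), although its input stood at 12.2 RPKM in Miwi ADH/- and 2.69 in Miwi +/-. ENSMUSG00000054523 was 3.41-fold lower (1.94 to 6.19), at 2.15 against 7.33 RPKM, with inputs of 33.5 and 8.19. For these last 2 transcripts the IP and the input thus moved in opposite directions.

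Between the IPs of Miwi -/- and Miwi +/-, 137 of 230 transcripts (59.6%) were at least 2-fold lower in Miwi -/- and 4 at least 2-fold higher, against 42.1% and 5.37% of all genes, with a median difference of -1.33 against -0.77. The Miwi -/- IP was also the shallowest column. Measured from the median of all genes, 85 transcripts (37.0%) were lower and 17 (7.39%) higher, against 19.4% and 13.9% of all genes. On the log2(RPKM + 1) scale a transcript under 1 RPKM in the Miwi +/- IP cannot be 2-fold lower, and 77 of the 230 were there. Of the other 153, 137 (89.5%) were at least 2-fold lower in Miwi -/-, against 53.5% of the 9638 genes with at least 1 RPKM in the Miwi +/- IP. In the same 153, the Miwi ADH/- IP was at least 2-fold higher for 68 and lower for 9, against 11.3% and 9.50% of those genes.

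ENSMUSG00000045709 had 58.9 RPKM in the Miwi +/- IP, 80.7 in the Miwi ADH/- IP and 0.327 in the Miwi -/- IP, where it had 1 read; the ratio of Miwi +/- to Miwi -/- was 180 (32.0 to 7137), while its inputs stood at 25.2, 59.7 and 2.31 RPKM. ENSMUSG00000060726 had 31.0 and 43.0 RPKM in the Miwi +/- and Miwi ADH/- IPs and no read in the Miwi -/- IP. Measured against 3 reads, the Miwi -/- IP was 18.2-fold below the Miwi +/- IP (lower end of the interval 14.4). On the opposite side, ENSMUSG00000056836 had 24.1 RPKM in the Miwi -/- IP, above 4.58 in the Miwi +/- IP (5.26-fold, 2.66 to 11.3) and 15.5 in the Miwi ADH/- IP. Its Miwi -/- input held 1.04 RPKM from 3 reads, against 3.93 RPKM from 12 reads in Miwi +/-. Taking both IP comparisons, 54 transcripts were at least 2-fold higher in Miwi ADH/- and at least 2-fold lower in Miwi -/-, which repeats the pattern of their inputs, and 4.26% of all genes did so. A further 74 (32.2%) were lower in Miwi -/- with Miwi ADH/- within 2-fold of Miwi +/-, close to the 32.8% of all genes. Another 72 (31.3%) were higher in Miwi ADH/- with Miwi -/- within 2-fold, against 11.7% of all genes, and 17 (7.39%) were within 2-fold in both, against 38.6%. The low levels shape this split. Of the 129 transcripts higher in the Miwi ADH/- IP, 61 were under 1 RPKM in the Miwi +/- IP and could not count as lower in Miwi -/-. Among all genes this held for 1115 of 2202.

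**Figure D3:**
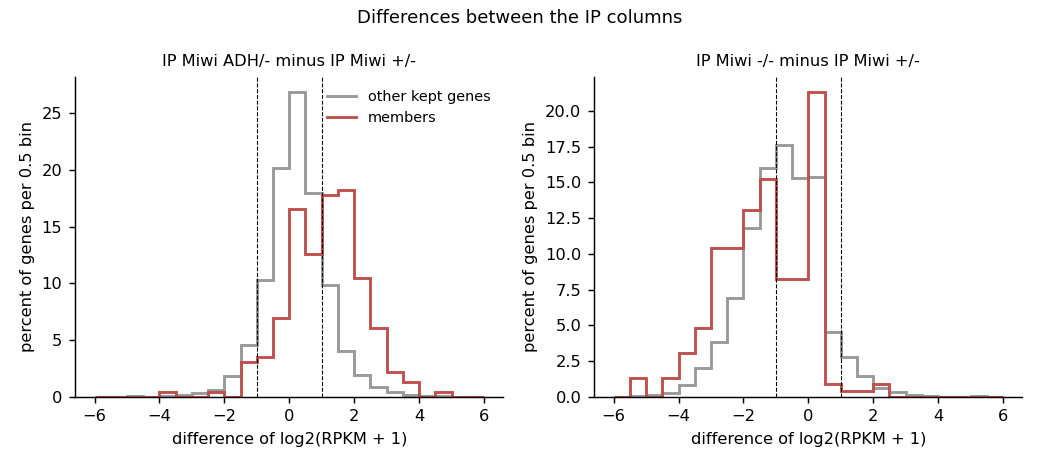
Distribution of the difference between IP columns on the log2(RPKM + 1) scale, as the percent of genes per bin, for the 230 transcripts (red) and the other kept genes (grey); dashed lines mark 2-fold. On the left (Miwi ADH/- minus Miwi +/-) 129 of 230 lie at or beyond 1, and on the right (Miwi -/- minus Miwi +/-) 137 lie at or below -1, beside a peak at 0 that holds the 33 transcripts without a read in either IP.

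Set against their own inputs, 181 of 230 transcripts (78.7%) were lower in the IP in Miwi +/-, close to the 77.6% of all genes. In Miwi ADH/-, 209 of 230 (90.9%) were lower, against 67.8% of all genes. In Miwi -/-, 96 of 230 (41.7%) were lower and 69 equal, against 83.7% of all genes lower. The 105 transcripts without a read in the Miwi -/- input cannot be lower in its IP. The share in Miwi -/- can therefore not be set directly against that of all genes. In Miwi +/-, 119 of 230 were at least 2-fold lower in the IP than in the input and 13 at least 2-fold higher, against 40.6% and 4.24% of all genes; the median difference was -1.11, against -0.77 for all genes. With all columns scaled to the same total these became 73 lower and 32 higher, against 18.2% and 14.6% of all genes, and measured from the median of all genes 51 lower and 31 higher, against 15.5% and 15.4%. The balance thus depends on the scale. In Miwi ADH/-, 152 were lower and 2 higher, against 25.0% and 4.83% of all genes, and the median was -1.50 against -0.41. In Miwi -/- the median was 0, since 69 transcripts had no read in either column. A transcript under 1 RPKM in the Miwi -/- input cannot be 2-fold lower on this scale, and 175 of the 230 were there. Of the 230, 35 were lower and 14 higher, against 60.9% and 3.67% of all genes, a contrast that the choice fixes in part. This direction turns with the scale: 14 were lower and 30 higher with equal totals, against 36.0% and 16.7% of all genes, and 3 lower and 166 higher when measured from the median of all genes, where the 69 without a read count as higher, against 25.0% and 23.6%. These differences use the input columns that chose the transcripts, which lowers the value in Miwi ADH/- and raises it in Miwi -/-, and they are given as a description.

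Among transcripts with at least 20 reads over both columns, the highest IP over input in Miwi +/- was that of ENSMUSG00000089730, with an IP of 18.2 RPKM over an input of 2.26 (8.06-fold, 3.96 to 18.5). The same transcript had 29.0 and 7.53 RPKM in Miwi ADH/- (3.84-fold, 2.45 to 6.30) and no read in either Miwi -/- column. ENSMUSG00000080316 had 16.2 RPKM in the Miwi +/- IP and 2.70 in its input (6.0-fold, 3.34 to 11.6). Both are among the 13 transcripts at least 2-fold higher in the Miwi +/- IP. The lowest were ENSMUSG00000024532, 44.0-fold lower in the IP (11.9 to 368), and ENSMUSG00000047733, with 0.344 RPKM in the IP against 19.5 in the input, from 1 read. ENSMUSG00000047733 stood at 5.55 RPKM in the Miwi ADH/- IP against 42.5 in that input. Across the 230 transcripts, which are not independent replicates and share each library's depth, log2(RPKM + 1) of the IP and of the matching input had a Pearson correlation of 0.593 for Miwi +/-, 0.620 for Miwi ADH/- and 0.323 for Miwi -/-. Over all 12246 genes it was 0.846, 0.881 and 0.731. The 230 were chosen by these same inputs, which limits their range there, and 105 of them had no read in the Miwi -/- input. Their correlations can therefore not be set directly against those of all genes.

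**Figure D4:**
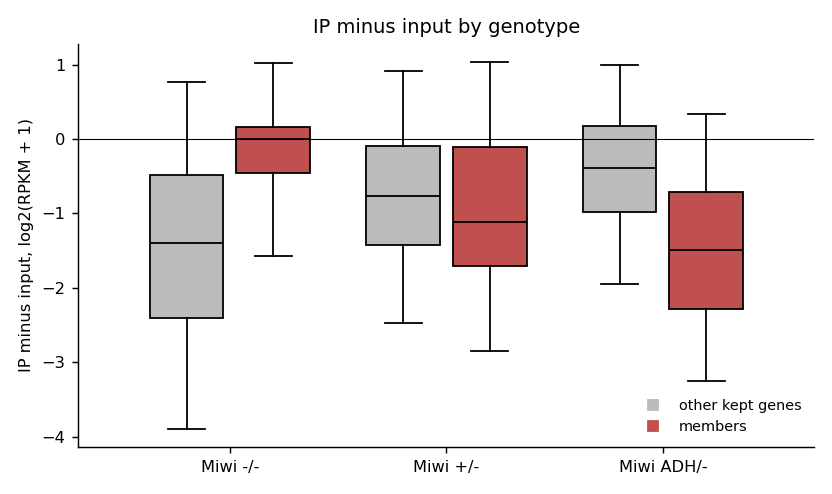
IP minus input on the log2(RPKM + 1) scale in each genotype for the 230 transcripts (red) and the other kept genes (grey); boxes show quartiles and median, whiskers the 5th and 95th percentiles. The medians of the 230 are 0 in Miwi -/-, -1.11 in Miwi +/- and -1.50 in Miwi ADH/-, and the inputs that enter these values also chose the transcripts.

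Summed over the 230 transcripts, the share of the reads of listed genes was 0.324% (95% interval 0.318% to 0.330%) in the Miwi +/- input, 1.17% (1.15% to 1.18%) in the Miwi ADH/- input and 0.0340% (0.0322% to 0.0359%) in the Miwi -/- input, which restates their choice. In the IPs the share was 0.323% (0.314% to 0.331%) in Miwi +/-, 0.663% (0.655% to 0.672%) in Miwi ADH/- and 0.105% (0.0980% to 0.113%) in Miwi -/-. The order of the genotypes was the same in IP and input, with a narrower range in the IPs. One transcript, ENSMUSG00000033799, held 322 of the 801 reads that the 230 had in the Miwi -/- IP and 2859 of 24590 in the Miwi ADH/- IP; it was singled out after its values were seen. Without it the IP shares were 0.296%, 0.586% and 0.0629% for Miwi +/-, Miwi ADH/- and Miwi -/- (0.0574% to 0.0688%), in the same order as before. Its own levels were 16.8, 57.6 and 16.4 RPKM in these IPs and 15.0, 32.1 and 6.12 RPKM in the inputs, and its Miwi -/- and Miwi +/- IPs did not differ beyond counting error (ratio 0.981, 0.849 to 1.13).

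The transcripts came from short genes. The gene lengths that follow from the RPKM steps had a median of 794 bases for the 230, with quartiles of 587 and 1181, against 1617 bases for all 12246 genes, with quartiles of 996 and 2542. These lengths would all change by one common factor if the read totals were off by it, and may be understated for the 27 transcripts with reads in only 2 or 3 columns; the median was 839 bases for the 144 with reads in 5 or 6 columns. Of the 230, 142 (61.7%) lay between 300 and under 1000 bases, a class that holds 22.3% of all genes. Transcripts of the list made up 5.19% of the genes in that class, 2.60% of those under 300 bases, 1.28% of those of 1000 to under 2000 bases, 0.472% of those of 2000 to under 4000 bases and 0.395% of the longest. Each condition alone was also met more often in that class. Of its 2735 genes, 469 met the Miwi ADH/- threshold and 484 the Miwi -/- threshold. In the class of 1000 to under 2000 bases, 271 and 455 of 4549 genes did so. A short gene has fewer reads at a given RPKM, so its counting error is larger. The class of 300 to under 1000 bases held 47 of the 57 transcripts with at least 10 RPKM in the Miwi +/- input, 3.55% of its genes at that level. The share was 0.376% in the class of 1000 to under 2000 bases and 0% (0 of 1393 genes) in the class of 2000 to under 4000 bases. It was 0.680% under 300 bases and 0.344% at 4000 bases and more, from 1 transcript each. The difference between the Miwi ADH/- and Miwi +/- IPs was above that of all genes in each length class: its median was 1.19 for the 142 transcripts of 300 to under 1000 bases, against 0.47 for all genes of that class, and 1.09 against 0.20 for the 58 of 1000 to under 2000 bases.

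**Figure D5:**
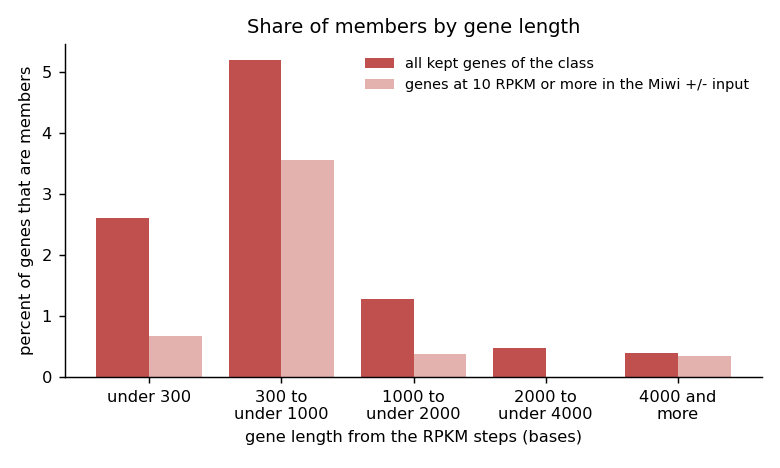
Percent of genes in each class of gene length that belong to the 230 transcripts, for all kept genes (dark red bars) and for genes with at least 10 RPKM in the Miwi +/- input (light red bars). The class of 300 to under 1000 bases stands highest in both, at 5.19% and 3.55%.

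Genes that met only one of the conditions give a frame for these values; none of these differences was tested, since each group of samples has 1 column. A set of 722 genes met the threshold for Miwi ADH/- without meeting that for Miwi -/-, and 1062 were lower in the Miwi -/- input without being higher in the Miwi ADH/- input; the latter include Prm2. Their median lengths were 904 and 1182 bases, against 794 for the 230. In the Miwi ADH/- IP, 50.7% of the 722 and 28.0% of the 1062 were at least 2-fold above the Miwi +/- IP, against 56.1% of the 230. In the Miwi -/- IP, 32.3% of the 722 and 50.0% of the 1062 were at least 2-fold below the Miwi +/- IP, against 59.6% of the 230. The 722 were much less abundant in the Miwi +/- input (median 0.939 RPKM) than the 230 (4.40 RPKM) and the 1062 (5.65 RPKM), and a low level limits how often a 2-fold lower value can be seen.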

How the data were processed

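The labels describe 12 samples, 2 in each of 6 groups. The authors deposited 1 table of RPKM values with 1 column per group, unlike the replicate libraries in the labels; the unit stands, per the file headers, in the Miwi +/- columns only and was taken to hold for the others, whose values give whole reads with the same gene lengths. Per the submitters' processing notes, TopHat, Bowtie and mm9 were used; the counting tool, the annotation and whether a column pools both samples are not stated there.

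Differences are of log2(RPKM + 1), with a pseudocount of 1 RPKM, which understates changes of low genes. Reads per gene were recovered from the RPKM steps (all values whole within 0.002 reads for genes with values in over 1 column). With values in only 2 columns, whole numbers that fit can nearly always be found, so this is no check there. The smallest that fit were taken, so reads of the 27 transcripts with reads in only 2 or 3 columns may be understated. On a simulated table reads were right for 96.7% of 12450 kept genes. Ratios have exact Clopper-Pearson intervals. The transcripts and marker lists were chosen with earlier results of these data known. The rule for named genes asked for gene names, which no transcript has; the IDs given were chosen after their values were seen, as the most abundant or the extremes of a comparison with at least 20 reads. Python 3.11.15, numpy 2.4.6, pandas 2.3.3 and scipy 1.17.1 were used.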

Additional observations from a re-analysis of the deposited data

How the results depend on the processing

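The number of transcripts that meet the rule was 440 with a pseudocount of 0.1 RPKM, which takes in all 230, and 61 with a pseudocount of 5 RPKM; no filter, a filter at 5 RPKM, median centring, equal column totals and counting intervals gave 154 to 280, with 225 of the 230 among the 280 of median centring. With a pseudocount of 5 RPKM, 57 of the 230 had a Miwi ADH/- IP at least 2-fold above the Miwi +/- IP, 58 had a Miwi -/- IP as far below it, and 39 had a Miwi +/- IP as far below the matching input. Among the 103 with at least 5 RPKM in the Miwi +/- input these were 50, 81 and 58, from fewer transcripts. Median centring gave 85 for the second count and 51 for the third, and equal totals gave 73 for the latter. The 218 transcripts with both counting intervals excluding equality, an alternative chosen after seeing the data, gave 125, 131 and 113. The larger direction of these 3 counts was kept under each of these alternatives; that of IP against input in Miwi -/- turned under equal totals and median centring. No paired analysis was possible because the columns carry no replicate numbers, and leaving out replicates was not run for the same reason. Depth was lowest in the Miwi -/- IP, where 115 transcripts (50%) had no read, against 23.7% of all genes. The 105 without a read in the Miwi -/- input follow in part from the rule, which chose genes low there.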
